A study of Mus musculus with 6 samples.

Results

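The glutathione, glucuronide and sulfate transferases are the enzymes that attach a soluble group to foreign compounds, bile pigments, steroids and reactive lipid products so that a cell can export them. The set described here comprised genes with symbols of the Gsta, Gstm, Gsto, Gstp, Gstt, Gstk and Gstz classes, the Ugt1a, Ugt2a and Ugt2b families or Sult1 through Sult6. A summed count of at least 10 over the 6 libraries was also required, which no Ugt2a gene met. Of 66 names that matched, 41 met the minimum, out of 34745 genes in the table. They were 21 glutathione, 13 glucuronide and 7 sulfate transferase genes. The 21 included the processed pseudogene Gstm2-ps1. They were chosen by symbol and by that summed count, which pools both groups and is given as a description only.

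Bulk RNA sequencing measured the transcripts of the colon of male mice matched for age. The 3 libraries labelled TRPC-hepta knockout came from mice that, by the title of the series, have none of the 7 TRPC proteins, which are calcium-permeable cation channels. The 3 libraries labelled TRPC-hepta control were their comparison. Both groups had received dextran sulfate sodium (DSS), which damages the lining of the colon, for 6 days before sacrifice, so no value here measures the effect of DSS itself. No source used here gives the alleles, the strain, the age in weeks or the stretch of colon taken. Each group has 3 samples, but the submitters describe the sequencing as done in duplicate, and the labels do not say whether the 3 samples of a group were 3 animals, so the p-values reflect sample-to-sample spread that may be technical.

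Glutathione transferases join the tripeptide glutathione to electrophiles, among them the aldehydes that form when membrane lipids are oxidised. Glucuronosyltransferases take glucuronic acid from UDP-glucuronic acid and place it on bilirubin, steroids, phenols and drugs, and sulfotransferases move sulfate from the donor PAPS to phenols, catecholamines and sterols. In the gut these enzymes are made mainly by the absorptive epithelium. Many of their genes are known targets of NRF2, the aryl hydrocarbon receptor and the epithelial factors HNF4 and CDX2.

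The libraries held 13816295, 14529028 and 15505327 counted reads in knockout replicates 1, 2 and 3, and 16819662 to 17584992 in the controls. After TMM scaling, 3 counts in 1 library were 0.174 to 0.219 CPM (counts scaled to library totals). The knockout libraries differed among themselves more than the controls did. Log2 CPM correlated across genes at Pearson r = 0.877 between knockout replicates 1 and 2, against 0.970 to 0.976 among controls, though genes are not replicates. Knockout replicate 3 had counts near a sum of replicate 1 (weight 0.497) and replicate 2 (weight 0.595), with squared deviations at a median of 2.63 times counting noise, against 6.79 to 9.29 for each control fitted the same way. Results are therefore also given without that library. Of the targeted genes, Trpc1 had 9.97, 6.57 and 7.48 CPM in the knockout libraries and 11.0, 8.39 and 7.54 CPM in the control libraries (edgeR, Benjamini-Hochberg adjusted p = 0.815). No source used here says which parts were deleted, so whole-gene counts do not check the labels.

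Transcripts of colonic epithelium were present in every library, at unequal summed levels. The 12 epithelial markers, such as Epcam, Vil1 and Krt20, summed to 9123, 19520 and 14183 CPM in knockout replicates 1, 2 and 3, against 16069 to 18596 CPM in the controls. All 12 were tested and 0 were called by edgeR or by DESeq2, with 1 at an unadjusted p under 0.05 and a median log2 fold change of -0.38. The 10 surface colonocyte markers, such as Car1 and Aqp8, summed to 2687, 8164 and 5665 CPM in the knockout libraries, against 10392 to 12408 CPM in the controls. Of these 10 edgeR called 0, while 5 were under 0.05 unadjusted, 4 lower and 1 higher, and DESeq2 called 5. The higher 1 was Slc37a2, at 226, 1.24 and 103 CPM in knockout against 1.46 to 4.39 CPM in control libraries. Of 8 neutrophil markers 5 were higher, of 7 macrophage markers 1 was higher and of 7 smooth muscle markers 4 were lower past the threshold of 0.05 (edgeR, Benjamini-Hochberg adjusted). Over all genes tested, 1.09% were higher and 0.67% lower by that test. At an unadjusted p under 0.05 by edgeR there were 7 neutrophil, 7 macrophage and 7 smooth muscle markers, against 16% of all genes. DESeq2 called 7, 5 and 7 of them, against 7.91% of all genes it tested. The neutrophil markers summed to 131 to 706 CPM in the knockout libraries and 64.0 to 128 CPM in the controls. The larger part was Ly6g, whose groups overlapped, at 88.9 to 446 CPM in knockout and 58.0 to 125 CPM in control libraries. S100a8, without overlap, had 10.6 to 79.4 CPM in knockout and 0.122 to 0.371 CPM in control libraries. The smooth muscle markers summed to 1662 to 3528 CPM in the knockout libraries and 7944 to 11317 CPM in the controls. The 6 hepatocyte markers summed to 0.949 to 4.26 CPM in the knockout libraries and 2.53 to 4.80 CPM in the controls. Genes of position along the colon also varied within groups. Hoxd13 had 151, 0 and 71.1 CPM in knockout replicates 1, 2 and 3, against 0.124, 0.810 and 0.0608 CPM in the controls, whereas Hoxb6 stood at 4.26, 98.8 and 54.6 CPM in knockout against 19.0, 40.3 and 90.1 CPM in control libraries. The part of these differences in the transferase values was not tested, and in bulk tissue fewer cells of a type and less RNA per cell cannot be told apart.

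Of the 41 transferase genes, 37 passed edgeR's filter on low counts and 4 did not. Those 4 were Gsto2, with 47 reads over all libraries, Sult5a1 with 99, Ugt1a2 with 163 and Ugt2b38 with 11. Ugt2b38 was also the gene just inside the minimum, with 2, 1 and 3 reads in the knockout libraries and 0, 2 and 3 in the controls. Sult1e1, which sulfates estrogens, was just outside it, with 4, 0 and 4 reads in knockout against 1, 0 and 0 in control libraries. Of the 25 names below the minimum, 18 had no read in any library, among them all 12 Sult2a genes and pseudogenes, the hydroxysteroid sulfotransferases of liver.

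Most transferase genes had lower values in the knockout libraries, but none passed the test over all genes. Among the 37 that passed the filter, 27 had a negative and 10 a positive log2 fold change, with a median of -0.45, while over all 15819 genes tested 48.4% were negative and the median was 0.01. The filter asks for reads in 3 libraries, the size of a group. Ugt1a5, Ugt2b5 and Ugt2b36 had no read in knockout replicate 1 and met it only with control libraries. Their negative signs are therefore given as a description. At a Benjamini-Hochberg adjusted p under 0.05 by edgeR's quasi-likelihood test, 0 of the 37 were called, against 1.76% of all genes tested. At an unadjusted p under 0.05 there were 9, with 8 lower and 1 higher, against 16% of all genes (6.5% lower and 9.48% higher). DESeq2 called 4, namely Gsta4, Sult1a1, Gsto1 and Gsta1, against 7.91% of all genes it tested. The libraries of the groups did not overlap for 13 of the 37, with 11 lower and 2 higher in the knockout, against 21.6% of all genes, with 10.4% lower and 11.2% higher. Without knockout replicate 3 the number was also 13, against 24.4% of all genes. Ugt1a5, which passed the filter only with control libraries, was among the 11 lower genes.

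**Figure D1:**
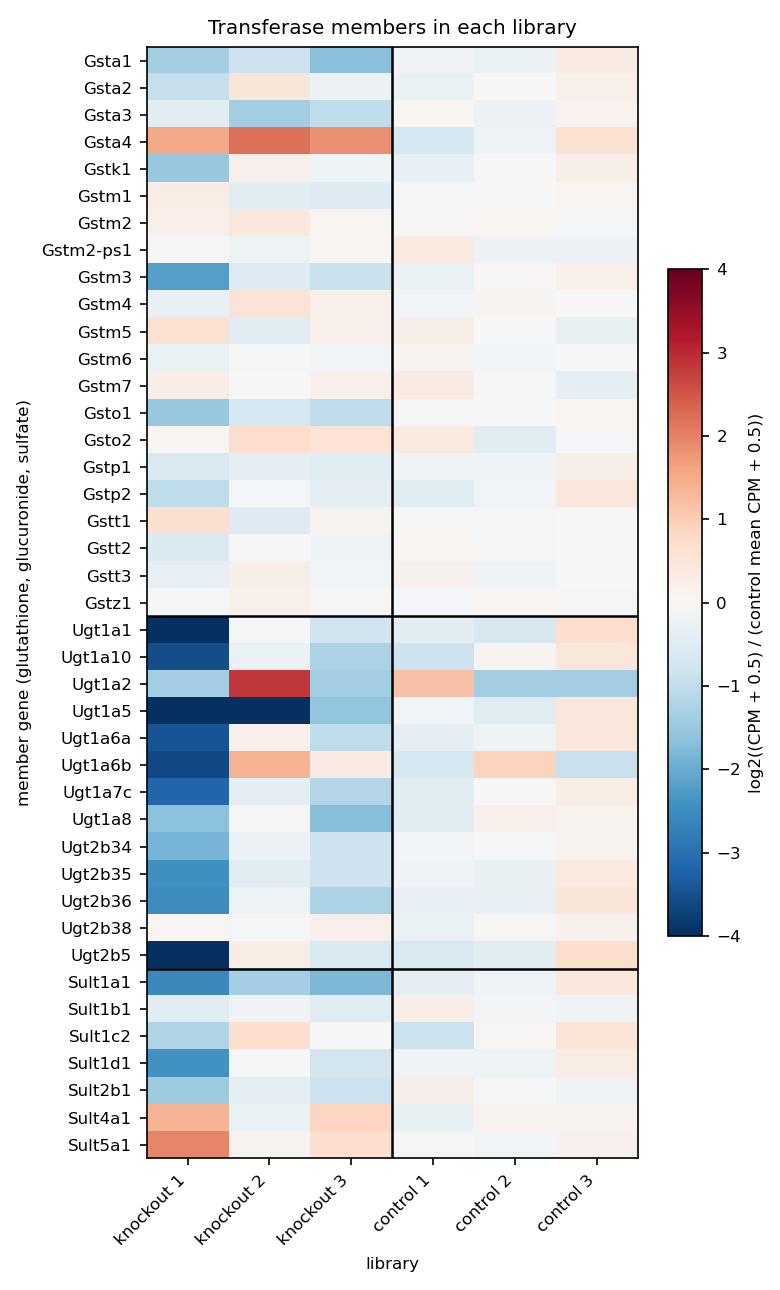
Each row is 1 of the 41 transferase genes and each column 1 library, with knockout replicates left of the controls, and colour gives the log2 ratio of CPM + 0.5 to the control mean + 0.5, with the colour scale ending at -4 and 4. Knockout replicate 1 is the bluest column for most glucuronide transferases, and Gsta4 is red in all 3 knockout libraries.

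The plot of all members by library shows that much of the spread lay inside the knockout group. Knockout replicate 1 was below all 5 other libraries, ties left out, for 23 of the 37 genes, and for 9 of the 11 glucuronide transferases tested, while this was so for 30.3% of all genes tested. Knockout replicates 1 and 2 stood at least 2-fold apart for 22 of the 37, against 33.4% of all genes. Replicate 2 was the higher for 18, against 12% of all genes, and replicate 1 for 4, against 21.4% of all genes. Knockout replicate 3 lay between them for 21 of those 22 genes, and over all genes that differed this much for 92.8%.

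Levels between genes were compared per transcript length, as the mean FPKM (fragments per kilobase, scaled to library totals) over all 6 libraries. The order was led by Gstp1 at 136, Gsto1 at 106, Sult1d1 at 102, Gsta4 at 82.2, Ugt1a1 at 78.8 and Ugt2b34 at 67.2 FPKM, so each family had a member among the first 5. Sult1a1 at 45.1, Sult1b1 at 37.9, Ugt1a7c at 34.4 and Gstm1 at 24.3 FPKM came next. The last was Ugt2b38 at 0.0616 FPKM. This order differed between libraries. In FPKM, Gsta4 had 111, 151 and 129 in the knockout libraries against 20.3, 29.8 and 51.4 in the controls, and Ugt1a1 had 6.31, 94.5 and 63.0 in knockout against 75.2, 66.3 and 167 in control libraries. The range of Ugt1a1 over libraries took in the means of all of its neighbours in the order, so their order is not resolved beyond that spread.

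**Figure D2:**
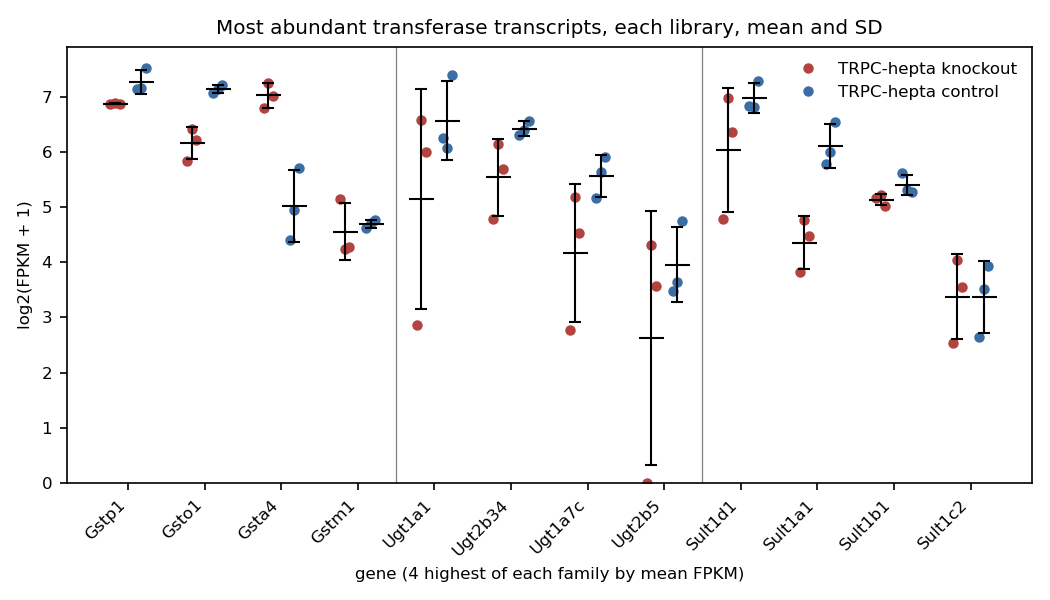
The plot gives log2(FPKM + 1) of the 4 most abundant genes of each family, with each library as a point, knockout in red left of control in blue, and black bars for the mean and SD (n = 3 each). Gsta4 lies higher and Sult1a1 and Gsto1 lie lower in all 3 knockout libraries, whereas Ugt1a1 and Ugt2b5 spread widely within the knockout.

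The regulatory sequence before the start of 5 genes is shown, as examples. Gsto1 and Sult1a1 were the lower members with the smallest p, Ugt1a1 and Sult1d1 are abundant members that differed widely between knockout libraries, and Gsta3 is a lower member with the letters of the antioxidant response element. Each run is the 250 bases before the RefSeq start on GRCm38.p6, read 5′ to 3′ on the gene's own strand. Capitals mark a match to the letters searched. The windows are chr1:21240335-21240584 (+) for Gsta3, chr19:47854723-47854972 (+) for Gsto1, chr1:88211709-88211958 (+) for Ugt1a1, chr7:126676419-126676668 (-) for Sult1a1 and chr5:87569007-87569256 (-) for Sult1d1.
Gsta3: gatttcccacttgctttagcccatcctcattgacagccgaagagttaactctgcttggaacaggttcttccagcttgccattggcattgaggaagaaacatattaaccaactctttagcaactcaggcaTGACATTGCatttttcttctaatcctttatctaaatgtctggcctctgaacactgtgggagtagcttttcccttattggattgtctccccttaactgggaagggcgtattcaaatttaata
Gsto1: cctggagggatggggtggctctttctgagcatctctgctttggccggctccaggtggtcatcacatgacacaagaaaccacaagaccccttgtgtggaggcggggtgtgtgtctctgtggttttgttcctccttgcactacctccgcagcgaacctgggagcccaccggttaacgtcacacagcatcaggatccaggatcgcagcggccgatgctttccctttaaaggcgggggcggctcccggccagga
Ugt1a1: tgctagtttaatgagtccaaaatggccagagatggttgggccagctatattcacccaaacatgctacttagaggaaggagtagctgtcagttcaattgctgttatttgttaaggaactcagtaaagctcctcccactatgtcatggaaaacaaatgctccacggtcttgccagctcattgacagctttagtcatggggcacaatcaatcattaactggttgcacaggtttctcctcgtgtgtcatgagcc
Sult1a1: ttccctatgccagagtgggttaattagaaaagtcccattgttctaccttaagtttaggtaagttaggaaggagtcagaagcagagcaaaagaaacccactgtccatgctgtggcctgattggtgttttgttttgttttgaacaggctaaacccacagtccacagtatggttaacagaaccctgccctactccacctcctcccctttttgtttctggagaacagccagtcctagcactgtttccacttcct
Sult1d1: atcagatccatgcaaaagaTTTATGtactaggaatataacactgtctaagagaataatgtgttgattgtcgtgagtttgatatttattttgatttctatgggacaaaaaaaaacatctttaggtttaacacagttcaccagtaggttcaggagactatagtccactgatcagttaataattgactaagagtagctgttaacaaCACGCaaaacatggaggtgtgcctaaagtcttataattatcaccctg

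Both strands of the 46 windows of 36 members were searched for 4 motifs, and the shares are set beside those of 32851 RefSeq promoter windows of the same length. The antioxidant response element core TGACNNNGC, the letters bound by NRF2, occurred in 3 of the 46 windows, those of Gsta3, Gstm5 and Gstm7 (6.52% against 10.2% of all windows). In Gsta3 it lay 121 to 113 bases before the start. The log2 fold change was -0.95 in Gsta3, 0.20 in Gstm5 and 0.17 in Gstm7, and a link to the letters was not tested. The xenobiotic response element core GCGTG of the aryl hydrocarbon receptor occurred in 10 (21.7% against 28.2%), the HNF4 letters CAAAGTCCA in 0 (against 0.384%) and the CDX2 letters TTTATG in 3 (6.52% against 10.8%). Sult1d1 held the xenobiotic response element core on its reverse strand, 47 to 43 bases before the start, and the CDX2 letters 231 to 226 bases before it. The windows of Gsto1, Ugt1a1 and Sult1a1 held none of these 4 sets of letters. The motifs were counted separately and may overlap. Some members have several windows and related genes have related sequence, so these shares are a description. Gsta4, Gstm2-ps1, Gstt2, Sult4a1 and Ugt1a6b had no window.

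Among the glutathione transferases the largest difference was in Gsta4, the alpha class enzyme that conjugates hydroxynonenal, an aldehyde from oxidised lipids. Gsta4 (ENSMUSG00000032348, GRCm38 chromosome 9, 78191966 to 78209348) had 96.3, 154 and 119.6 CPM in the knockout libraries and 20.2, 29.0 and 50.4 CPM in the controls. Every knockout library stood above every control, and the nearest pair, knockout replicate 1 and control replicate 3, differed by more than the whole range of the controls. The log2 fold change was 1.89 ± 0.36 (SE, n = 3 each), with a Benjamini-Hochberg adjusted p of 0.0619 by edgeR and 6.9e-05 by DESeq2. In alternatives of the fit the adjusted p by edgeR or limma ran from 0.0322 without knockout replicate 2 to 0.248 without control replicate 2, and the sign was positive in each. Per 10000 reads of the epithelial markers, Gsta4 had 106, 78.6 and 84.4 reads in the knockout libraries and 11.2, 15.6 and 31.4 in the controls, again without overlap.

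The other alpha class genes differed in the other direction or did not separate. Gsta1 had 1.18, 1.97 and 0.873 CPM in the knockout libraries and 3.46, 3.12 and 4.98 CPM in the controls. Gsta3 had 8.72, 4.30 and 5.74 CPM in knockout against 12.8, 10.2 and 13.3 CPM in control libraries. Neither gene's groups overlapped, with log2 fold changes of -1.52 ± 0.41 for Gsta1 and -0.95 ± 0.30 for Gsta3 (edgeR, Benjamini-Hochberg adjusted p = 0.133 and 0.19). Gsta2 had 15.8, 43.3 and 25.9 CPM in knockout against 25.6, 31.2 and 35.0 CPM in control libraries, so that knockout replicate 2 was the highest and replicate 1 the lowest of all libraries. Gsta1 and Gsta2 are near-identical copies, and no source used here says how reads that fit both were counted. This also holds for Gstp1 and Gstp2 and within the Gstm cluster.

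Gsto1, the omega class enzyme that reduces dehydroascorbate and protein disulfides, was the second most abundant transferase. Gsto1 (chromosome 19, 47854970 to 47864790) had 127, 224 and 178 CPM in the knockout libraries and 348, 356 and 379 CPM in the controls. The controls lay close together and every knockout library was well below them, with replicate 1 the lowest. The log2 fold change was -1.03 ± 0.22 (edgeR, Benjamini-Hochberg adjusted p = 0.0796, and 0.0013 by DESeq2). Over the edgeR and limma alternatives the adjusted p ran from 0.0143 without knockout replicate 2 to 0.474 with scaling to epithelial markers and without knockout replicate 3. Per 10000 epithelial marker reads the values were 139, 115 and 126 in the knockout libraries and 194, 191 and 236 in the controls, which still did not overlap. Its neighbour Gsto2 had 0.394, 0.876 and 0.748 CPM in knockout against 0.618, 0.116 and 0.304 CPM in control libraries, too few for the filter.

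Gstp1, the pi class enzyme and the most abundant member, had 79.4, 94.0 and 85.6 CPM in the knockout libraries and 110.5, 110.0 and 143 CPM in the controls. The knockout libraries were close to each other and all lower, with a log2 fold change of -0.49 ± 0.16 (edgeR, Benjamini-Hochberg adjusted p = 0.193). Per 10000 epithelial marker reads Gstp1 had 87.0, 48.1 and 60.4 reads in the knockout libraries against 61.5, 59.2 and 88.9 in the controls, where the groups overlapped. Gstp2 had 9.44, 19.0 and 15.0 CPM in knockout against 13.9, 18.2 and 27.1 CPM in control libraries, with overlap.

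The mu class genes overlapped between groups for the most part. They lie together on chromosome 3, apart from the pseudogene Gstm2-ps1 on chromosome 5. Gstm1, the most abundant of them, had 89.98, 54.2 and 51.2 CPM in the knockout libraries and 70.2, 73.2 and 76.9 CPM in the controls. Its knockout values stood on both sides of the controls, and the log2 fold change of -0.17 ± 0.23 turned to 0.36 with scaling to epithelial markers (edgeR, Benjamini-Hochberg adjusted p = 0.78 and 0.635). Gstm3 was the one mu class gene with all knockout libraries lower, at 3.48, 12.3 and 9.29 CPM in knockout against 14.6, 18.2 and 20.5 CPM in control libraries. Its log2 fold change was -1.09 ± 0.44 (edgeR, Benjamini-Hochberg adjusted p = 0.288). Gstm2 had 39.2, 45.6 and 36.1 CPM in knockout against 34.2, 36.1 and 32.5 CPM in control libraries, all higher by a margin that is lost in rounding. Gstm4, Gstm5, Gstm6, Gstm7 and the pseudogene Gstm2-ps1 overlapped between groups, with log2 fold changes from -0.16 in Gstm6 to 0.20 in Gstm5.

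The remaining classes have more specialised roles and also overlapped. Gstz1, the maleylacetoacetate isomerase of tyrosine breakdown, was the steadiest, with 25.6, 30.7 and 27.4 CPM in the knockout libraries and 25.6, 28.1 and 25.3 CPM in the controls. Gstk1, the mitochondrial and peroxisomal kappa enzyme, had 16.7, 56.0 and 42.9 CPM in knockout against 38.7, 49.5 and 58.0 CPM in control libraries. The theta class genes had log2 fold changes of -0.24 (Gstt2), -0.05 (Gstt3) and 0.17 (Gstt1). Gstt1 had 23.0, 10.1 and 16.3 CPM in knockout against 14.8, 14.2 and 15.0 CPM in control libraries, so that its controls agreed closely while knockout replicate 1 was above and replicate 2 below them. Over the 20 glutathione transferase genes tested, with the pseudogene Gstm2-ps1 among them, 13 fold changes were negative and 7 positive. The median was -0.14 and the groups did not overlap for 7, against 21.6% of all genes tested.

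The glucuronide transferases had the lowest median of the 3 families and the widest spread within the knockout. Of 11 tested, 10 had a negative log2 fold change and the median was -1.03, yet 0 were called and 1, Ugt1a5, had an unadjusted p under 0.05 (DESeq2 called 0). Of the 10, Ugt1a5, Ugt2b5 and Ugt2b36 had passed the filter only with control libraries. Knockout replicate 2 stood at least 2-fold above replicate 1 in 10 of the 11, and the eleventh, Ugt1a5, had no read in either. The summed CPM of all 13 members was 201, 1096 and 653 in knockout replicates 1, 2 and 3, and 988, 1095 and 1508 in the controls. Replicate 1 was thus far below every other library, while replicate 2 lay among the controls.

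The Ugt1a genes are alternative first exons of 1 locus on chromosome 1, joined to common later exons, so each isoform keeps its own substrate-binding part and shares the part that binds the sugar donor. All 8 members share annotated exon bases, which make up 50.3% to 60.6% of their exon length in GENCODE M21, and no other transferase shares any. Reads in the common exons fit each of the 8, so the split between them depends on a counting rule that no source used here states. Their sum does not depend on it where each read was counted once. That sum was 48.7, 583 and 318 CPM in knockout replicates 1, 2 and 3, against 446, 534 and 837 CPM in the controls. Knockout replicate 2 was 11.97 times replicate 1, and 5.59 times per epithelial marker read.

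Ugt1a1, the bilirubin glucuronosyltransferase, had 12.7, 223 and 136 CPM in the knockout libraries and 174, 150 and 381 CPM in the controls. Knockout replicate 1 was 17.5-fold below replicate 2, which exceeded control replicates 1 and 2, so the groups overlapped (log2 fold change -0.93 ± 0.89, edgeR, Benjamini-Hochberg adjusted p = 0.68). Ugt1a7c had 26.1, 186 and 106 CPM in knockout against 179, 246 and 300.0 CPM in control libraries (-1.19 ± 0.63, adjusted p = 0.425). Here 1 knockout value passed the lowest control.

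Ugt1a5 had the lowest log2 fold change of all members, at -3.31 ± 1.28 (edgeR, Benjamini-Hochberg adjusted p = 0.274), a value that rests on 1 library. It had 0, 0 and 35 reads in the knockout libraries and 111, 89 and 172 in the controls, which in CPM were 0, 0 and 2.18 in knockout against 6.86, 5.15 and 10.5 in control libraries. It had no counted read in knockout replicates 1 and 2, where 3 counts would have been 0.197 and 0.219 CPM, but was counted in replicate 3. Without knockout replicate 3 the knockout group held no read and the fitted value of -9.88 is no estimate of a fold, while without replicate 1 the log2 fold change was -2.73. It did not follow the rest of the locus, since each of the other tested Ugt1a genes was higher in replicate 2 than in replicates 1 and 3. Ugt1a6b, which like Ugt1a6a acts on small planar phenols, had 1.44, 60.6 and 28.9 CPM in knockout against 13.8, 43.1 and 12.2 CPM in control libraries, and was the one glucuronide transferase with a positive log2 fold change (0.39 ± 1.08). Ugt1a2 had reads in 1 library of each group, 123 in knockout replicate 2 and 40 in control replicate 1. Ugt1a6a, Ugt1a8 and Ugt1a10 had log2 fold changes of -0.82, -1.03 and -1.21 with overlapping groups.

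The Ugt2b genes, on chromosome 5, act mostly on steroids. The 5 members summed to 152, 513 and 335 CPM in the knockout libraries and 542, 562 and 671 CPM in the controls, without overlap. Ugt2b34 (chromosome 5, 86889767 to 86906937) was their most abundant member, with 150, 465 and 308 CPM in the knockout libraries and 510, 528 and 602 CPM in the controls. All knockout libraries were lower, but they spread over a 3.10-fold range while the controls lay close together, and the log2 fold change of -0.83 ± 0.38 did not pass (edgeR, Benjamini-Hochberg adjusted p = 0.358). Per 10000 epithelial marker reads Ugt2b34 had 165, 238 and 217 reads in the knockout libraries against 284, 284 and 375 in the controls, without overlap. Ugt2b35 also did not overlap, at 1.77, 8.61 and 6.55 CPM in knockout against 10.5, 9.60 and 15.8 CPM in control libraries. Ugt2b5 had no read in knockout replicate 1, 37.3 CPM in replicate 2 and 19.5 CPM in replicate 3, against 19.6, 21.8 and 49.4 CPM in the controls. Ugt2b36 likewise had no read in knockout replicate 1, with 1.97 and 0.686 CPM in replicates 2 and 3, against 1.79, 1.79 and 3.46 CPM in the controls.

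The sulfate transferases were the family whose summed level, with Sult1a1 included, separated the groups. The 7 members summed to 310, 680 and 474 CPM in the knockout libraries, against 776, 745 and 961 CPM in the controls. Per 10000 epithelial marker reads the knockout libraries stood at 339, 348 and 334 reads, close together, and the controls at 432, 401 and 598 reads. Single genes were less even, with Sult1b1 at 174, 98.6 and 107 and Sult1d1 at 67.9, 174 and 142 in knockout. The groups overlapped for each of these genes on that scale. The glucuronide sum on that scale was 220, 562 and 460 reads in knockout against 550, 589 and 939 reads in control libraries, and the glutathione sum was 694, 441 and 507 in knockout against 474, 471 and 611 reads in control libraries, both with overlap. These sums are led by a few genes. Sult1b1 and Sult1d1 together, without Sult1a1, had 221, 533 and 354 CPM in knockout against 552, 489 and 606 CPM in control libraries. Per 10000 epithelial marker reads they had 242, 273 and 250 in knockout against 307, 263 and 377 in control libraries, with overlap on both scales. With 3 libraries a group the exact permutation test cannot go below p = 0.1, so the sums were not tested.

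**Figure D3:**
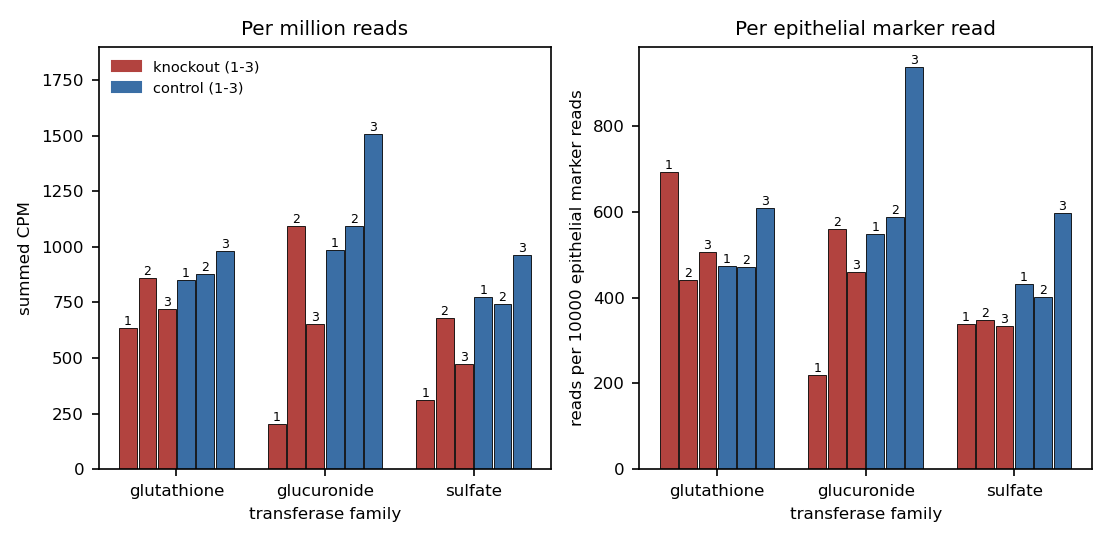
Bars give the summed level of each family in each library, knockout replicates 1 to 3 in red left of control replicates 1 to 3 in blue, as CPM (left panel) and as reads per 10000 reads of the 12 epithelial markers (right panel). The sulfate bars of the knockout are lower than all control bars in both panels, and knockout replicate 1 has the lowest glucuronide bar in both.

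Sult1a1, the phenol sulfotransferase, had the lowest p of the family. Sult1a1 (ENSMUSG00000030711, chromosome 7, 126672865 to 126676432) had 36.4, 84.7 and 62.8 CPM in the knockout libraries and 171, 196 and 291 CPM in the controls. The highest knockout library reached less than the lowest control, and the log2 fold change was -1.84 ± 0.35 (edgeR, Benjamini-Hochberg adjusted p = 0.0623, and 5.07e-05 by DESeq2). Over the edgeR and limma alternatives the adjusted p ran from 0.0138 without knockout replicate 2 to 0.258 without knockout replicate 3. Per 10000 epithelial marker reads the 3 knockout libraries nearly coincided, at 39.9, 43.4 and 44.3 reads, against 95.3, 106 and 181 reads in the controls. Scaled so, the log2 fold change was -1.58 with an adjusted p of 0.0662.

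Sult1d1, which sulfates dopamine and other catecholamines in mice, had 62.0, 340 and 202 CPM in the knockout libraries and 302, 291 and 411 CPM in the controls. Knockout replicate 2 was 5.49-fold above replicate 1 and within the controls, so the groups overlapped (-0.73 ± 0.55, edgeR, Benjamini-Hochberg adjusted p = 0.583). Its neighbour on chromosome 5, Sult1b1, acts on phenols and thyroid hormones and was far steadier, with 159, 192 and 152 CPM in knockout against 250.5, 198 and 195 CPM in control libraries. The knockout values were lower by a small margin (-0.35 ± 0.17, adjusted p = 0.375), and the sign turned to 0.05 with scaling to epithelial markers.

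Sult2b1, the cholesterol sulfotransferase, had 10.1, 21.7 and 15.2 CPM in the knockout libraries and 32.9, 27.0 and 24.0 CPM in the controls, without overlap (-0.84 ± 0.29, edgeR, Benjamini-Hochberg adjusted p = 0.231). Sult1c2 varied in both groups, at 8.001, 30.3 and 19.2 CPM in knockout against 10.1, 19.5 and 27.0 CPM in control libraries, and its log2 fold change of 0.02 changed sign in 3 alternatives. Sult4a1, best known from brain, was highest in replicate 1 within the knockout, with 30.9, 9.70 and 21.6 CPM in knockout against 9.45, 13.01 and 12.9 CPM in control libraries (0.81 ± 0.41, adjusted p = 0.397). Sult5a1 had 50, 8 and 17 reads in knockout against 7, 7 and 10 reads in control libraries. Both were thus highest in knockout replicate 1, the library in which most transferases were lowest.

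Leaving out single libraries changed which members were called. Without knockout replicate 2, edgeR with Benjamini-Hochberg adjustment called 7 members, which were Gsta1, Gsta4, Gsto1, Sult1a1, Sult2b1, Sult4a1 and Ugt1a8, against 11.2% of all genes tested. Without knockout replicate 1 it called Sult1a1 alone, against 1.99% of all genes. It called 0 without knockout replicate 3 and 0 without any 1 control library, where 0.093% and 0.123% to 0.191% of all genes were called (0.179% without control replicate 3). Without the filter on low counts it called Gsta4 and Sult1a1, against 1.39% of all genes, and with RLE factors 0, against 1.68%. With limma on log2(FPKM + 0.1) Gsta4 was called, against 1.59% of all genes, and on log2(FPKM + 1) 0 members were, against 1.31%.

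Scaled to the summed epithelial markers, the members lay on both sides of 0. Of the 37 tested, 20 had a negative and 17 a positive log2 fold change, with a median of -0.12, and 7 had turned from negative to positive. The scaling moved the median over all genes tested to 0.44, against 0.01 after TMM, so the members' median lay below that of all genes on both scales. The groups did not overlap for 13, with 9 lower and 4 higher, against 17.6% of all genes tested, 3.27% lower and 14.4% higher. The 9 lower genes were Gsta1, Gstm3, Gsto1, Sult1a1, Sult2b1, Ugt1a5, Ugt1a7c, Ugt2b34 and Ugt2b35, and the 4 higher were Gsta4, Gstm2, Gstm4 and Gstz1. Of the 9, Ugt1a5 had passed the filter only with control libraries. By edgeR with Benjamini-Hochberg adjustment 0 members were called on this scale, against 0.518% of all genes. With knockout replicate 3 also left out, 0.242% of all genes were called and Ugt1a5 with them, but the knockout libraries that remain hold no read of it, so that this call only sets the controls against 0 reads.

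**Figure D4:**
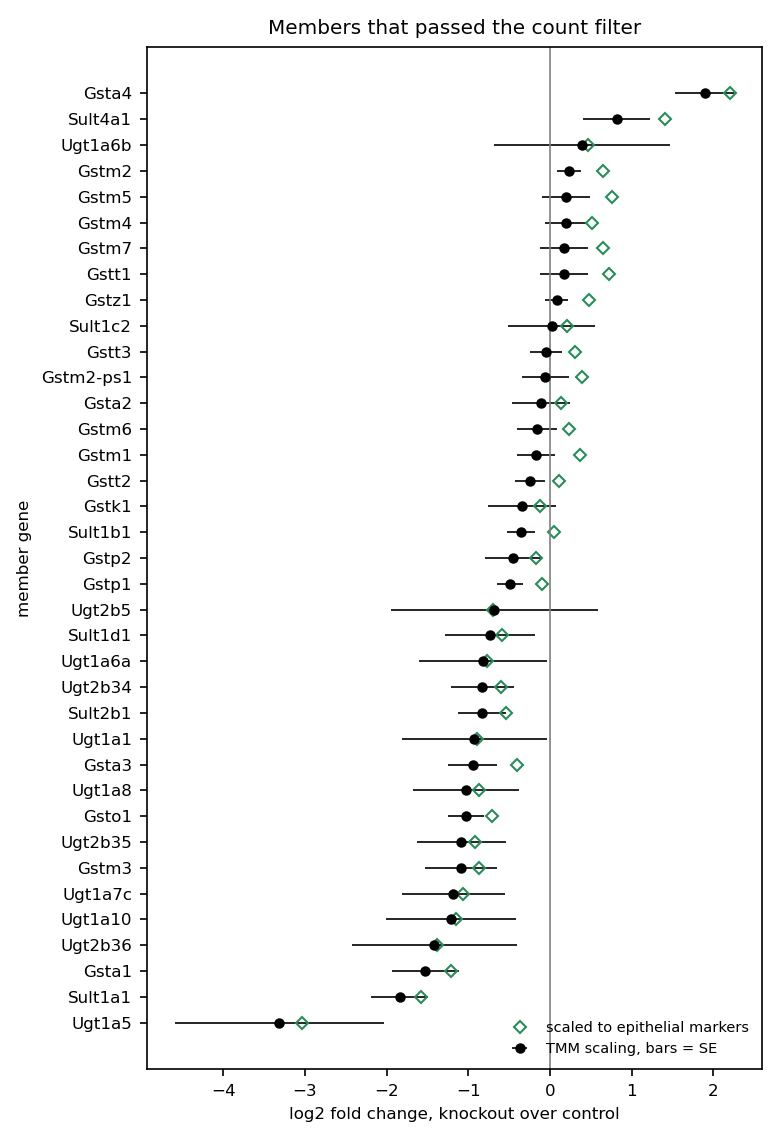
Points give the log2 fold change, knockout over control, of the 37 members that passed the count filter, sorted, as black dots with SE after TMM scaling and as open green diamonds after scaling to epithelial markers. Ugt1a5 at -3.31 and Gsta4 at 1.89 are the ends of the range, and most diamonds lie right of their dots.

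Around the transferases, 76 genes of donor supply, export and regulation were looked up, of which 75 were in the table and 71 were tested. In the edgeR fit 1 was higher and 1 was lower at a Benjamini-Hochberg adjusted p under 0.05, while 19 were under 0.05 unadjusted and DESeq2 called 11 of the 71. Of the 71, 51 had a negative and 20 a positive log2 fold change. Over all genes tested, edgeR called 1.09% higher and 0.67% lower, 16% were under 0.05 unadjusted and DESeq2 called 7.91%.

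The higher gene was Slc7a11, the cystine importer that feeds glutathione synthesis. It had 15.1, 9.12 and 11.8 CPM in the knockout libraries and 2.72, 3.59 and 2.67 CPM in the controls, without overlap (2.002 ± 0.28, adjusted p = 0.0287 by edgeR). Without knockout replicate 3 or any 1 control the adjusted p was 0.121 to 0.159. Of the 17 genes of glutathione supply and the peroxidases it was the only one called by edgeR, and DESeq2 called 4, with 6 positive, 11 negative and a median of -0.20. Gpx3, the secreted glutathione peroxidase, had 728, 89.6 and 384 CPM in knockout against 52.0, 41.2 and 62.4 CPM in control libraries (2.95 ± 0.70, adjusted p = 0.0986). Mgst2, a microsomal glutathione transferase, had 42.7, 110.5 and 77.4 CPM in knockout against 176, 197 and 269 CPM in control libraries (-1.48 ± 0.36, adjusted p = 0.106).

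The lower gene was Abcb1a, which encodes the P-glycoprotein of the apical membrane. It had 139.5, 300.1 and 218 CPM in the knockout libraries and 875, 1013 and 1143 CPM in the controls, without overlap (-2.21 ± 0.31, adjusted p = 0.0278 by edgeR). Without knockout replicate 3 or any 1 control the adjusted p was 0.115 to 0.174. Of the 9 exporters edgeR called this 1 and DESeq2 called 3, with Abcc2 and Abcb1b besides, and the median was -0.09. Its paralog Abcb1b stood at 16.9, 3.28 and 9.35 CPM in knockout against 3.15, 3.07 and 2.55 CPM in control libraries (1.75 ± 0.56, adjusted p = 0.192). Abcc2, an apical exporter of glutathione and glucuronide conjugates, had 2.03, 0.438 and 0.998 CPM in knockout against 8.53, 5.67 and 8.39 CPM in control libraries (-2.69 ± 0.53, adjusted p = 0.0673).

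Of the 9 genes of UDP-glucuronic acid supply, 0 were called by edgeR, 3 were under 0.05 unadjusted and DESeq2 called 1, with a median of -0.23. Ugdh, which makes UDP-glucuronic acid, had 105, 330 and 223 CPM in the knockout libraries and 497, 465 and 792 CPM in the controls. All knockout values were lower and replicate 1 was the lowest, as for 9 of the 11 glucuronide transferases tested (-1.41 ± 0.43, edgeR, Benjamini-Hochberg adjusted p = 0.175). The phosphoglucomutase gene Pgm2 (-0.65, adjusted p = 0.212) and Gusb, the lysosomal glucuronidase (0.40, adjusted p = 0.212), also did not overlap between groups.

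Of the 10 tested genes of sulfate uptake and activated sulfate supply, 0 were called, 3 were under 0.05 unadjusted and DESeq2 called 1, with a median of -0.34. Papss1, which makes the sulfate donor, had 49.3, 67.0 and 54.9 CPM in the knockout libraries and 88.0, 74.2 and 84.1 CPM in the controls, all lower (-0.52 ± 0.16, edgeR, Benjamini-Hochberg adjusted p = 0.174). The related and more abundant Papss2 overlapped, at 119, 609 and 381 CPM in knockout against 614, 521 and 806 CPM in control libraries (-0.81 ± 0.54, adjusted p = 0.529 by edgeR). The sulfate transporter gene Slc26a2 had a log2 fold change of -0.66 (adjusted p = 0.247) and Slc26a3, the chloride and bicarbonate exchanger of surface colonocytes, one of -1.22 (adjusted p = 0.175).

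Of 14 regulators, 0 were called by edgeR or by DESeq2, 2 had an unadjusted p under 0.05 and 12 had a negative log2 fold change. Hnf4a, an epithelial nuclear receptor, had 387, 890 and 636 CPM in the knockout libraries and 951, 1036 and 955 CPM in the controls (-0.62 ± 0.30, edgeR, Benjamini-Hochberg adjusted p = 0.384). The vitamin D receptor gene Vdr (-0.86, adjusted p = 0.203) and Ahrr, the repressor of the aryl hydrocarbon receptor (-1.0004, adjusted p = 0.272), had the smallest p of the list.

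Of 12 tested targets of NRF2 or the aryl hydrocarbon receptor outside the transferases, 9 had a negative and 3 a positive log2 fold change. Their median was -0.26, and over all genes tested 48.4% were negative. Hmox1, heme oxygenase, had 58.3, 16.7 and 34.3 CPM in the knockout libraries and 4.76, 5.38 and 7.48 CPM in the controls (2.63 ± 0.47, edgeR, Benjamini-Hochberg adjusted p = 0.0519). Nqo1, the quinone reductase, had 5.97, 27.7 and 17.8 CPM in knockout against 47.9, 47.0 and 64.2 CPM in control libraries (-1.63 ± 0.50, adjusted p = 0.179). Both were without overlap and in opposite directions, but neither passed the test. G6pdx had a log2 fold change of -0.32 that turned to 0.06 with scaling to epithelial markers. Of the 12 genes of this list that were tested, 0 were called by edgeR, 2 were under 0.05 unadjusted and DESeq2 called the same 2, Hmox1 and Nqo1. DESeq2 also called Cyp1a1, which edgeR's filter had left out, with no read in the knockout libraries and 0.463 to 0.680 CPM in the controls.

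**Figure D5:**
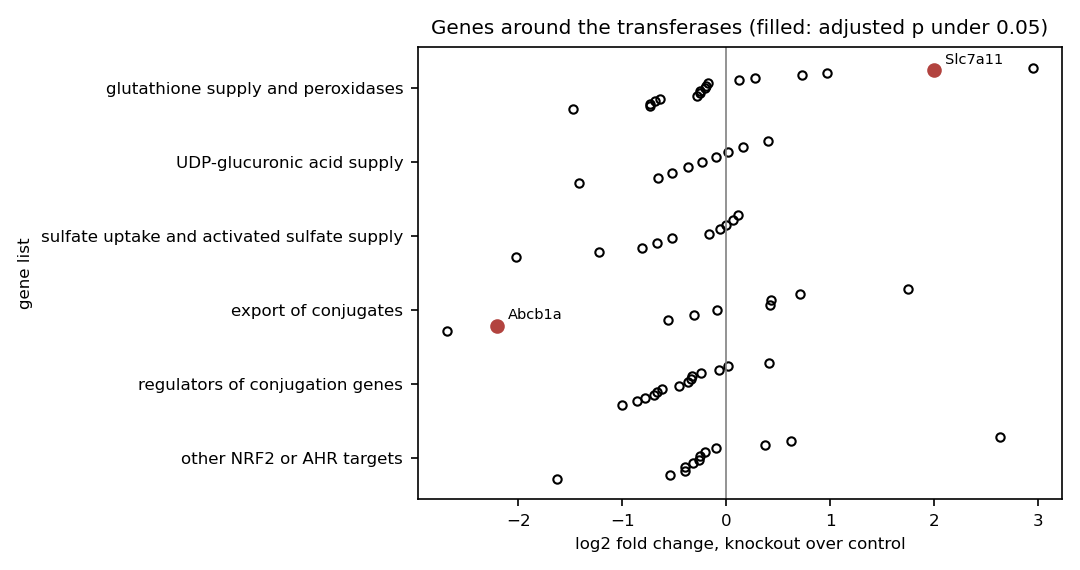
Each point is 1 tested gene of 6 lists around the transferases, placed by its log2 fold change, knockout over control, with filled points for an adjusted p under 0.05 by edgeR. Slc7a11 at 2.002 and Abcb1a at -2.21 are the filled points, and the points of the regulators lie mostly left of 0.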

How the data were processed

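Per the file headers, the authors' table holds counts and FPKM by gene and library. The deposited counts are whole and unscaled. The deposited FPKM are those counts over library total and a length per gene: for 100% of 11507 genes with at least 50 reads throughout, count over FPKM tracked the column sum to 0.01 log2 units. HISAT2 2.0.4, StringTie 1.3.0, edgeR and the builds GRCh38 and mm8 are named, without roles, in the submitters' processing notes. The loci match GRCm38: all 41 members were found in GENCODE M21, 33 with the same start and end. No source used here states the strandedness or how reads fitting several genes were counted.

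All genes were tested with edgeR 4.0.16 (R 4.3.3) after TMM scaling and edgeR's filter on low counts, knockout against control, two-sided, by quasi-likelihood. P-values were Benjamini-Hochberg adjusted over 15819 genes at 0.05, without a replicate block. Member values were read from that fit. CPM were computed after TMM, and SEs from the test statistic. Floors of 3 counts cover counting error only. Other settings were DESeq2 1.42.0, RLE factors, an unfiltered table, limma 3.58.1 on log2(FPKM + 1) or log2(FPKM + 0.1), the block, a minimum of 100 reads for members and each library left out. Scaling to the epithelial markers was added after the data were seen. Same-numbered libraries deviated from their group means with correlations of 0.0420, -0.166 and -0.0164. With 3 libraries a group these values can neither show nor exclude a batch shared by number.

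The members and gene lists were chosen with earlier results of these data known. Named members were those past the threshold, the 4 most abundant of each family, the 2 highest and 2 lowest fold changes, and those at the count minimum. From each pathway list the called genes and the 3 with the smallest p were named. Others are named where a group is described. Some genes are not reported here. Promoter sequences are from RefSeq (GRCm38.p6).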

Additional observations from a re-analysis of the deposited data

How the results depend on the processing

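Over all genes the edgeR test called 278, DESeq2 1436, the replicate block 9 (0.0569%) and scaling to epithelial markers 82. Leaving out 1 library gave 15 (without knockout replicate 3) to 1825 (without knockout replicate 2), with 20 to 31 without any 1 control and 39 with epithelial scaling and without knockout replicate 3. Of the members, against 0, DESeq2 called 4, no filter on low counts 2 (Gsta4 and Sult1a1), limma on log2(FPKM + 0.1) 1 (Gsta4), and leaving out a library 0 to 7. Epithelial scaling without knockout replicate 3 called 1, Ugt1a5, which has no read in the knockout libraries left, so it is a comparison with 0 reads and no support. With a minimum of 100 reads there were 38 members and 0 calls. Of the genes around them, against 2, DESeq2 called 12 (11 of those that edgeR tested), no filter 3, limma on either pseudocount 1, the replicate block 0, epithelial scaling 1 and, without knockout replicate 3, 0, and leaving out a library 0 to 12.

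With epithelial scaling 7 of the 37 members tested turned from negative to positive: Gstm1, Sult1b1 and, at 0.11 to 0.39, Gsta2, Gstm2-ps1, Gstm6, Gstt2 and Gstt3. Among the named genes followed through every setting, signs turned in 4. Gstm1 had 0.36 and Sult1b1 0.0513 with epithelial scaling, and 0.58 and 0.16 when knockout replicate 3 was also left out. G6pdx had 0.0595 and 0.0826 in these settings. Sult1c2 had -0.0652 with the replicate block, and -0.48 to 0.38 when a library was left out. The causes were not tested, beyond fewer libraries in those that leave some out. Under the replicate block Slc7a11 had an adjusted p of 0.135 and Abcb1a one of 0.0882 (edgeR), and no member was called. No source used here says that the same-numbered libraries share more than a number.

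At this depth, genes such as Gsta1, Ugt2b36 and Gsto2, at a few CPM or less, rest on few reads, and the split among Ugt1a isoforms rests on an unstated counting rule.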

Other observations

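Other conjugation and detoxification enzymes outside the 3 families were looked up after the transferase values were known. Of 17 such genes 11 were tested, 0 were called by edgeR (Benjamini-Hochberg adjustment), 4 were under 0.05 unadjusted and DESeq2 called 2 of the 11, Chst4 and Ephx1. Over all genes tested, 16% were under 0.05 unadjusted by edgeR and DESeq2 called 7.91%. Of the 11, 8 had a negative and 3 a positive log2 fold change. DESeq2 also called Inmt, which edgeR's filter had left out, with 0 to 0.131 CPM in knockout and 0.486 to 2.35 CPM in control libraries. Chst4, a carbohydrate sulfotransferase, had 31.3, 79.2 and 53.6 CPM in the knockout libraries and 21.8, 27.9 and 15.3 CPM in the controls (log2 fold change 1.33 ± 0.38, adjusted p = 0.148). All knockout libraries were higher, unlike those of Sult1a1. The 7 goblet cell markers had a median of 0.35, with 6 positive, 1 negative, 0 called and overlapping groups for each. They summed to 3623, 15358 and 9793 CPM in knockout against 5549 to 9651 CPM in control libraries. A link between them and Chst4 was not tested. Ephx1, the microsomal epoxide hydrolase, had 22.5, 11.8 and 17.2 CPM in knockout against 39.1, 32.0 and 32.5 CPM in control libraries (-1.01 ± 0.25, adjusted p = 0.114), and here knockout replicate 2 rather than replicate 1 was the lowest. Tpmt, which methylates thiopurines, had 8.26, 15.3 and 12.8 CPM in knockout against 23.5, 16.9 and 27.0 CPM in control libraries (-0.89 ± 0.29, adjusted p = 0.194). Nat2, an arylamine acetyltransferase, had 18.4, 32.1 and 29.6 CPM in knockout against 42.6, 38.9 and 35.9 CPM in control libraries (-0.55 ± 0.23, adjusted p = 0.306). None of these adjusted p-values, all from edgeR, passed the threshold.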
